A study of Mus musculus with 24 samples.

Results

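The 108 genes described here were selected on their own expression values in poly(A)-enriched RNA-seq of mouse adrenal glands and neuroblastoma tumors. A gene was taken when it exceeded 1000 FPKM (fragments per 1000 bases of a gene, scaled to 1000000 fragments of a normalized library size) in at least 1 library of the 2 groups that carried a MYCN transgene and stayed below 1 FPKM in every library of the other 2 groups. They were 108 of the 21833 protein-coding genes of the table. The 24 libraries fell into 4 groups. AG came from 3 adrenal gland samples of CRE-negative mice, AGM from 5 tumor-free adrenal gland samples of mice with the genotype MYCN +/-, CRE +, TI from 8 tumors of IGF2BP1, CRE + mice (1 +/- and 7 +/+) and TIM from 8 tumors of mice that carried both transgenes and CRE. The transgenes lay in the Rosa26 locus and the iCRE was driven by the Dbh promoter, which is active in the sympatho-adrenal lineage, and the mice had been crossed back to C57Bl6/N. The tumor mice were culled when termination criteria were met and the AGM mice at the planned end of observation, and ages were not given in the labels. Libraries are named here by group and letter (AGM-a to AGM-e, TIM-a to TIM-h). The letters carry no sample number, and where nothing tied a column to one animal, p-values measure only the spread between these libraries. AG was sequenced in run 1 only, AGM in run 2 only, 6 of the TI samples in run 1 and 1 each in runs 2 and 3, and 3 of the TIM samples in run 2 and 5 in run 3. A difference of AGM or TIM from AG thus cannot be told apart from one between runs. The silent groups come mostly from run 1 and the high groups from runs 2 and 3, so that TIM vs TI and, in part, TIM vs AGM follow the runs as well, and no column could be tied to its run.

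The adrenal gland consists of a cortex that makes steroid hormones and a medulla of chromaffin cells that belong, like neuroblastoma, to the sympatho-adrenal lineage. It lies beside the kidney and near the pancreas and the liver. Exocrine pancreas makes digestive enzymes and their zymogens, hepatocytes secrete most plasma proteins, and germ cells use many genes that other tissues keep silent. None of these programs belongs to chromaffin or cortical cells. The groups carried markers of their labelled tissue, but also those of fat and blood cells. Summed over 13 adrenal cortex genes, AG reached 697 to 780 FPKM and AGM 4906 to 6432 FPKM, whereas TI stayed at or below 17.8 FPKM and TIM at or below 12.8 FPKM. Summed over 16 sympathoadrenal and neuroblastoma genes, AG reached 145 to 208 FPKM, AGM 1483 to 2560 FPKM, TI 249 to 1862 FPKM and TIM 240 to 4825 FPKM. The sum of 9 Y-linked genes was 0 in every AG library and at most 0.0334 FPKM in AGM. It ranged from 0 to 30.1 FPKM in TI (median 13.9) and from 0 to 34.9 FPKM in TIM (median 22.5). Comparisons of TIM with AGM thus follow sex in part as well, and the share of sex was not tested.

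Of the 108 genes, 63 exceeded 1000 FPKM in AGM only, 38 in TIM only and 7 in both groups (Ctrb1, Dnajb8, Hbq1a, Irx1, Kcnk7, Ninj2 and S100a3). By the tissue in which a gene is best known, a grouping made after the values had been seen and therefore not tested, 18 were liver genes, 10 genes of the exocrine pancreas, 4 kidney genes and 11 germ line genes, and 65 were placed in no tissue. All 18 liver genes and all 4 kidney genes were high in AGM only. Exocrine pancreas genes were high in both groups, but mostly different ones (Cpb1, Cckar, Klk1, Rnase1 and Pnliprp1 in AGM, and Cpa1, Amy2a1, Amy2a5 and Gp2 in TIM), and only Ctrb1 was above 1000 FPKM in both.

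The sequences before the start sites of 5 of these genes are shown, because Serpina1a stands for the liver genes, Ctrb1, Cpa1 and Cpb1 for the digestive enzymes that were high in TIM, in AGM or in both, and Ninj2 for the highest value of all. Each is the stretch of 250 bases before the RefSeq start of the gene, 5′ to 3′ on the strand of the gene, from RefSeq (table of GRCm38.p6), and each had 1 exact match in GRCm39. Capitals mark a match, on either strand, of GTTAAT in Serpina1a (part of the site of the liver factor HNF1), of TTTCCCA in Ctrb1 and Cpa1 (the RBPJ box of the acinar factor PTF1) and of CACGTG in Ninj2 (the E-box bound by MYC proteins). Cpb1 had no match of TTTCCCA in this window.
Serpina1a: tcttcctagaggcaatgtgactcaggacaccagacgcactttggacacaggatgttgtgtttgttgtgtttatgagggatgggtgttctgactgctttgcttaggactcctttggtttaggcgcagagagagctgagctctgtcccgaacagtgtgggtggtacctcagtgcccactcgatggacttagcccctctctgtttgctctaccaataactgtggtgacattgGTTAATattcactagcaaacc
Ctrb1: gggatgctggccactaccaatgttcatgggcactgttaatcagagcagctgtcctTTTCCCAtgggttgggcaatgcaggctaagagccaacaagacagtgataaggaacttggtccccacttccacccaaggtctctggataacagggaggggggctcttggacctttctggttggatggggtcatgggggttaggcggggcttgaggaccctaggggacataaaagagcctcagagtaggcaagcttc
Cpa1: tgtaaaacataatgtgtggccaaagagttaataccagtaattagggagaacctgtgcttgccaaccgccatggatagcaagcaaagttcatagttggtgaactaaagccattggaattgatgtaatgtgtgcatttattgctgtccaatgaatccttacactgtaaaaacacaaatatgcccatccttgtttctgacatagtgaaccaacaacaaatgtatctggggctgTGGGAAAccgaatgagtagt
Cpb1: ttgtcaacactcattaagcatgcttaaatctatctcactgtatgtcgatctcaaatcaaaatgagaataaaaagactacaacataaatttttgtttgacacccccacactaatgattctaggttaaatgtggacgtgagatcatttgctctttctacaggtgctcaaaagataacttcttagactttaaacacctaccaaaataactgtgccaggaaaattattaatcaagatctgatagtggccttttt
Ninj2: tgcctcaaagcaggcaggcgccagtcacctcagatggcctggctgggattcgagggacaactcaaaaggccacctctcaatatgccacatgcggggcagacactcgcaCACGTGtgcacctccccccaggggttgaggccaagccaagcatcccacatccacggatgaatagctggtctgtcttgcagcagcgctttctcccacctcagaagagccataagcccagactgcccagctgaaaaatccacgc
In GRCm39 these stretches lie at chr12:103829879-103830128 (Serpina1a, minus strand), chr8:112417643-112417892 (Ctrb1, minus strand), chr6:30638967-30639216 (Cpa1, plus strand), chr3:20329898-20330147 (Cpb1, minus strand) and chr6:120070091-120070340 (Ninj2, plus strand). In GENCODE M39 the stretches of Serpina1a and Ninj2 lie inside the span of the gene, which ends at 103832088 on the side of the start (Serpina1a) and begins at 120070066 (Ninj2), so that the RefSeq starts of both are internal to that annotation. The table held promoters for 82 of the 108 genes and for 27025 genes in all. GTTAAT was found in 6.52% of all promoters and in 7.32% of those of the 82 genes, with 3 of 12 among the liver genes and 3 of 9 among the pancreas genes. TTTCCCA was found in 6.79% of all promoters, in 9.76% of the 82 and in 2 of 9 pancreas promoters. CACGTG was found in 6.05% of all promoters, in 9 of the 82 and in 4 of 30 promoters of genes high in TIM only. These matches are descriptions of letters in short windows, and no factor was measured there.

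The silence in AG and TI was close to complete when read as reads after correction. Multiplied by gene length, the FPKM of every library were whole multiples of 1 step, which gave back the read number per gene after the batch correction of the authors (recovered reads). In AG, the 108 genes together held 43, 47 and 51 recovered reads, which was 0.000246% to 0.000285% of a library (17434796 to 17893013 reads). In TI they held between 173 and 830 reads in 6 libraries, 3 reads in TI-h and 0 in TI-g, where a count of 0 allows a share of up to 2.41e-05%. Of 1188 AG and TI values, 748 were at 0, and the highest was 214 reads of Clca3a2, a member of a family of chloride channel regulators, in TI-c. In AGM the same genes held 75.7% to 97.8% of the recovered reads (median 93.3%), and in TIM 5.98% to 82.5% (median 51.4%). These shares were set by the selection and carry no test. A low share did not mean few reads in extreme genes. In TIM-b, 22221597 of 371642135 recovered reads were in the 108 genes and 17613847 outside the 126 genes above 1000 FPKM. The others lay in the 18 such genes that the rule kept out. One of them, Calcr, had 2.74 FPKM in TI-f and 647298 FPKM in TIM-b, and exceeded 1000 FPKM in all AGM libraries. Recovered reads do not measure how deeply a library was sequenced, since they follow the correction. In AGM they were 1.44 to 14.6 times, in TIM 0.512 to 6.65 times and in AG and TI 0.156 to 0.181 times the library size behind the FPKM. Therefore single genes can exceed 1000000 FPKM, and all FPKM would be 3.54 to 6.47 times higher if they were scaled to the reads outside the extreme genes.

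The pattern of the few AG reads differed between the genes of the 2 groups. Of the 63 genes high in AGM only, 39 had at least 1 read in every AG library, 34 of them exactly 1 read in all 3, and 10 more had 1 read in some AG library. No gene that was high in TIM had a read in AG. All 108 genes had at least 1 read in some AG or TI library. Of the 3272 genes at 0 in all 11 of these libraries, 0 exceeded 1000 FPKM in AGM or TIM and 5 reached 1000 reads there. Of the 396 genes with exactly 1 read in every AG library, 34 (8.59%) were among the 108 and 227 reached 1000 reads in an AGM or TIM library. Of the 4613 genes with 0 reads in every AG library, 59 (1.28%) were among the 108. The share was 0.495% over all genes and 0.894% over the 12075 genes below 1 FPKM in every AG and TI library.

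**Figure D1:**
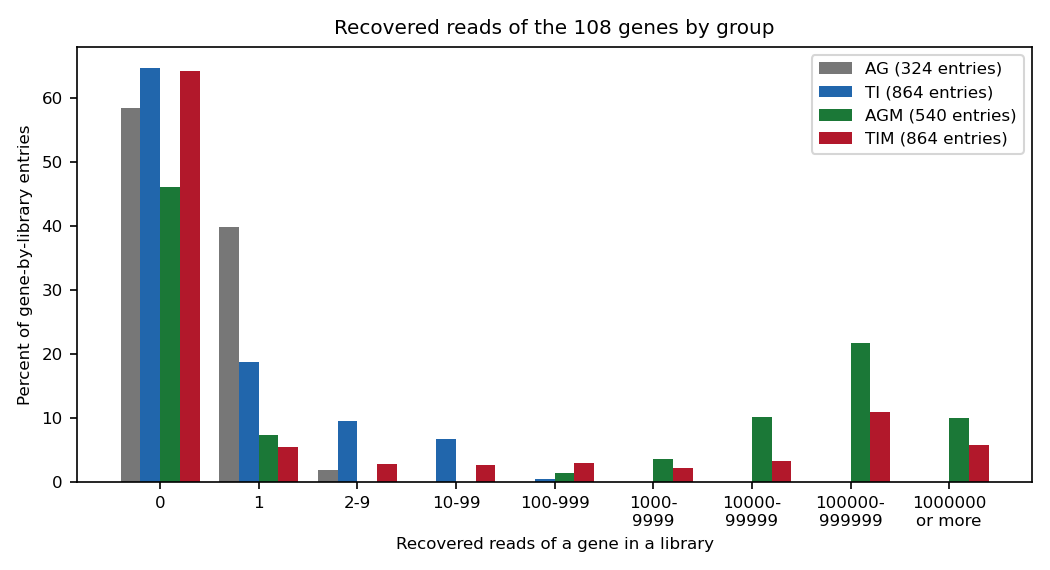
Recovered reads per gene and library for the 108 genes, as the share of values in each class of read number, for AG (n = 3 libraries), TI (n = 8), AGM (n = 5) and TIM (n = 8). AG and TI hold values of at most 214 reads, whereas AGM has 249 of 540 values at 0, 0 values between 2 and 99 reads and 54 values of at least 1000000 reads, and TIM has 555 of 864 values at 0 and 49 of at least 1000000.

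Within AGM and TIM a gene was mostly either at 0 or 1 read or very high. Of the 1404 values of the 108 genes in these 13 libraries, 890 (63.4%) were at 0 or 1 read and 397 (28.3%) reached 10000 reads. The lowest AGM value above 1 read was 112 reads. In AGM, 45 genes had at most 1 read in one library and more than 100 in another. Of the 70 genes above 1000 FPKM in AGM, 28 were so in 1 library, 24 in 2, 6 in 3, 2 in 4 and 10 in all 5. Of the 45 genes above 1000 FPKM in TIM, 18 were so in 1 library, 6 in 2, 11 in 3, 4 in 4, 4 in 5, 1 in 6 (Gm3278) and 1 in all 8 (Gm3020). For 13 genes, 1 AGM library exceeded 1000 FPKM while the other 4 had 0 or 1 read, and for 3 genes the same held for 1 TIM library against the other 7. Just inside the upper threshold were Myoz2 (1014 FPKM), Acnat1 (1024) and Casr (1037), and just outside Trim34b (981) and Aox4 (974). The highest AG or TI values inside the lower threshold were 0.765 FPKM (Hspb3), 0.538 (Clca3a2) and 0.460 (Cfap58), and the nearest genes kept out by it were Tmem212 (1.46), Fndc9 (1.57) and Prl2c2 (1.66). These 3 reached 287231, 898714 and 366712 FPKM in TIM-e, were also high in 2 or more other TIM libraries and were at 0 in at least 1, and so had high and silent libraries side by side like the 108 genes.

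**Figure D2:**
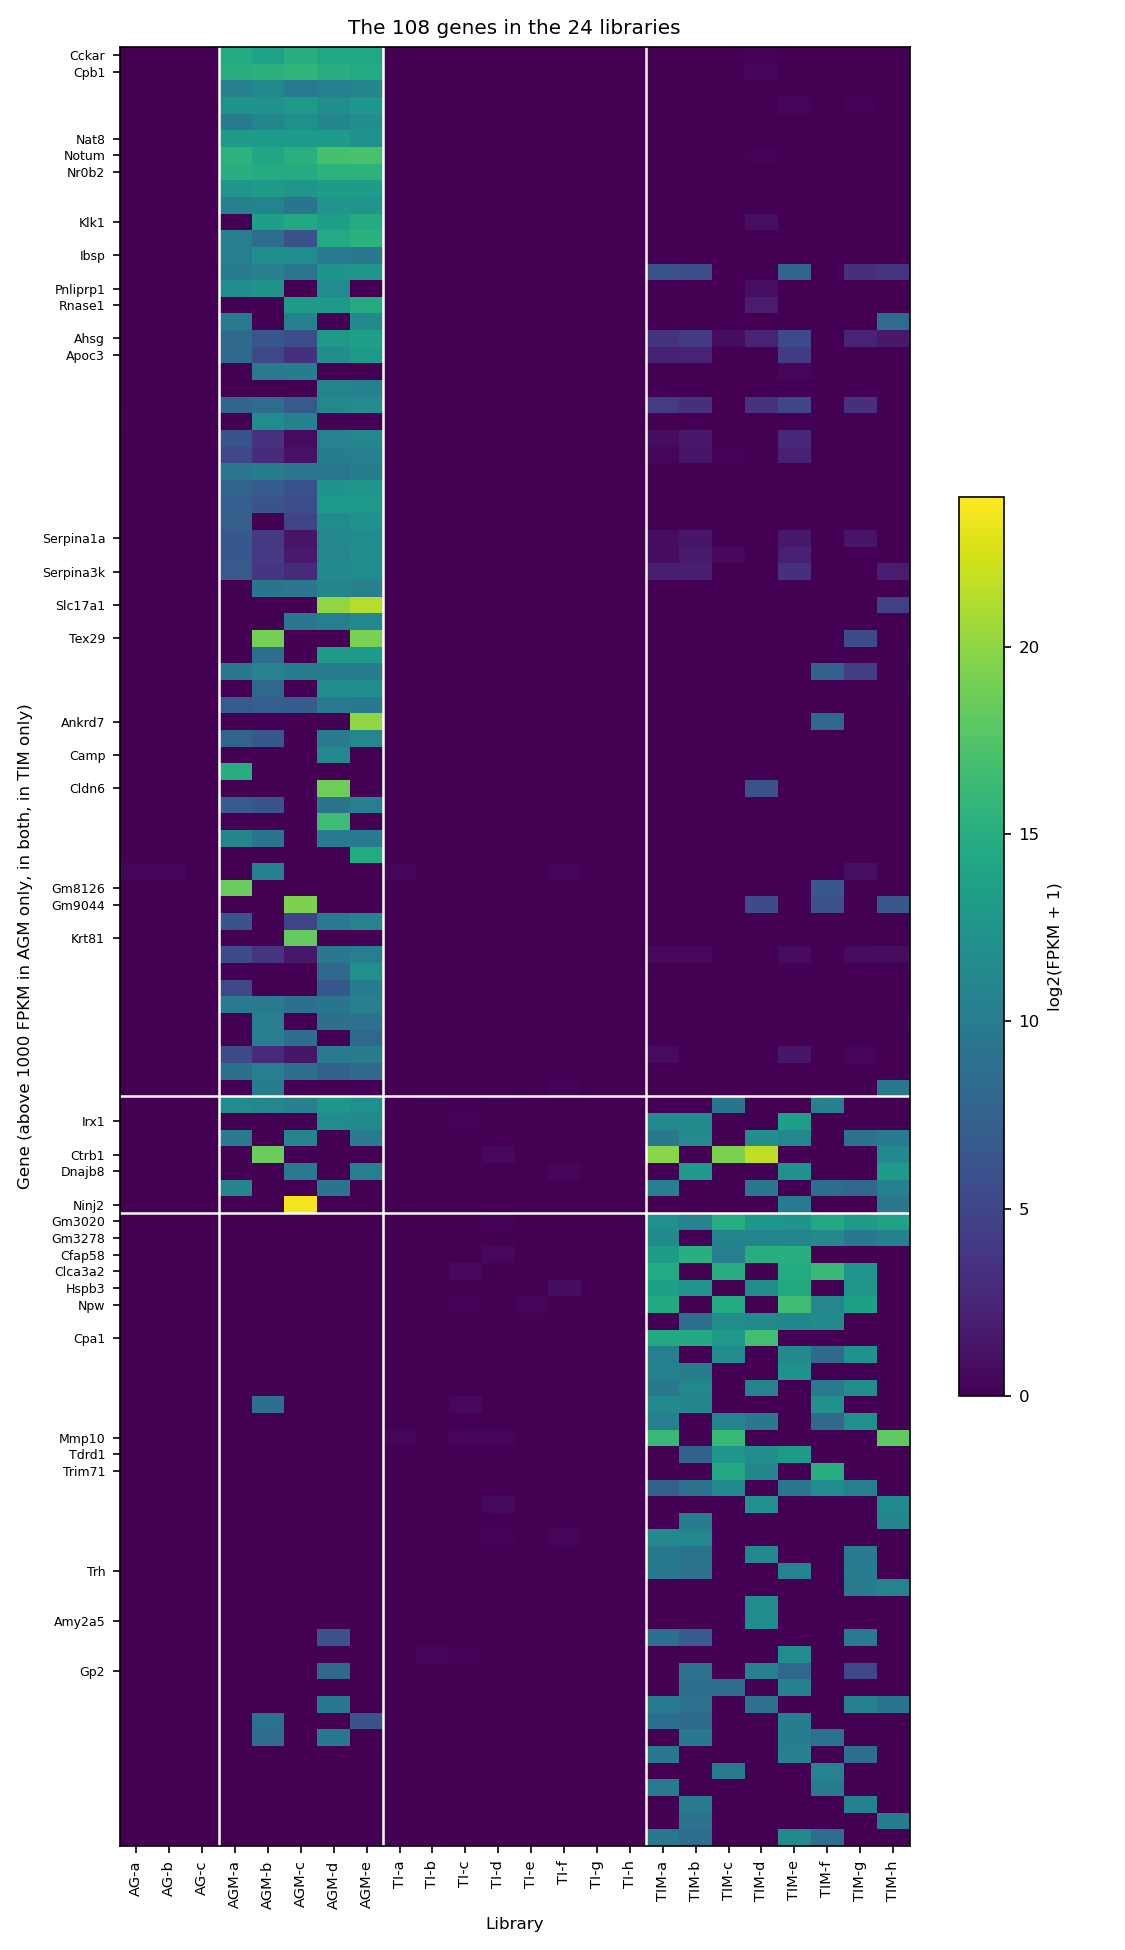
Level of each of the 108 genes (rows, from top to bottom those above 1000 FPKM in AGM only, in both groups and in TIM only) in each of the 24 libraries (columns) as log2(FPKM + 1), with names for part of the rows. AG and TI are below 1 FPKM throughout, AGM-d and AGM-e carry the liver genes, and most other genes are high in a few AGM or TIM libraries and at 0 in their neighbours.

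The single genes that led the AGM libraries changed from library to library. Ninj2, which encodes the membrane protein ninjurin 2, had 0, 0, 12269500, 0 and 0.0127 FPKM in AGM-a to AGM-e. The 922960115 recovered reads of Ninj2 in AGM-c were 78.9% of the recovered reads of that library, and the other 4 libraries had 0 or 1 read. Such shares are of reads after the correction and not of the reads sequenced. Its TIM values were at 0 except for 1009 FPKM in TIM-e and 739 in TIM-h. Slc17a1, which encodes a sodium-dependent phosphate transporter of the kidney proximal tubule, had 0, 0, 0, 1091850 and 2664590 FPKM. It took 51.9% and 63.5% of the recovered reads of AGM-d and AGM-e. Tex29, named for its expression in testis, had 0, 533179, 0.00987, 0.00915 and 603465 FPKM and took 32.9% of the recovered reads of AGM-b. Gm8126, a predicted gene, had 347054, 0, 0, 0 and 0 FPKM and took 42.5% of the recovered reads of AGM-a. In each of these genes no AGM library lay between 1 read and the high values.

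The same was seen in other leading genes of AGM. Ankrd7, an ankyrin repeat gene of the germ line, reached 1071420 FPKM in AGM-e, with at most 1 read in the other AGM libraries. Gm9044 reached 610404 FPKM and Krt81, a hair keratin, 299080 FPKM in AGM-c. Cldn6, a claudin of embryonic epithelia, reached 419795 FPKM, and Fezf2, a transcription factor of forebrain neurons, 95685 FPKM in AGM-d, both with 0 or 1 read in the other 4 libraries. Camp, which encodes the antimicrobial peptide of granulocytes, reached 2332 FPKM in AGM-d alone. The other 13 genes of the granulocyte and mast cell list were not among the 108.

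A smaller set was high in every AGM library. These 10 genes were Cckar, Cpb1, Fam83a, Gm31160, Hbq1a, Hephl1, Nat8, Notum, Nr0b2 and Prlr, and their highest AGM value was 1.74 to 7.76 times the lowest. Nr0b2, a nuclear receptor without a DNA-binding domain that represses other nuclear receptors, for example in bile acid synthesis, had 35392, 27318, 28716, 45496 and 47892 FPKM (36963 ± 9431, SD, n = 5). Prlr, the prolactin receptor, had 6029, 9004, 5735, 9650 and 9966 FPKM (8077 ± 2036, SD, n = 5). Notum, a secreted esterase that inactivates Wnt proteins, had 47446, 18528, 39714, 133043 and 143752 FPKM (76497 ± 57615, SD, n = 5). AGM-d and AGM-e were the highest for Notum, which was also the only one of the 13 genes of the list for adrenal capsule and zonation among the 108. For these 3 genes no AGM library was near 0, and the AG values were below 1 FPKM.

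Apart from Hbq1a, a theta chain of the alpha-globin cluster, these genes were all but absent from TIM. The highest TIM value among the other 9 was 113 reads (Cpb1 in TIM-d, 0.258 FPKM). Hbq1a had 3111, 2248, 1360, 6300 and 4246 FPKM in AGM, 654 in TIM-c, 1367 in TIM-f and 0 in the other 6 TIM libraries. Genes that are no markers of a distant tissue belonged to this set as well. Hephl1, a ferroxidase related to hephaestin, had 1024, 2061, 4251, 2070 and 3469 FPKM, and Fam83a had 1412, 2364, 1040, 1486 and 1914 FPKM.

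Exocrine pancreas genes were uneven within one tissue program. Cpb1, the zymogen of carboxypeptidase B, had 33412, 42698, 57986, 36386 and 28333 FPKM in AGM (39763 ± 11435, SD, n = 5), and Cckar, the cholecystokinin receptor of acinar cells, had 27069, 15935, 33853, 22164 and 19538 FPKM (23712 ± 6972, SD, n = 5). Both were high in all 5 AGM libraries and below 1 FPKM in all 8 TIM libraries. Klk1, a tissue kallikrein, had 0.0114, 12318, 24498, 10348 and 28093 FPKM, Rnase1, the pancreatic ribonuclease, had 0, 0, 8778, 8345 and 28073 FPKM, and Pnliprp1, a lipase-related protein, had 3225, 5492, 0.0056, 3141 and 0 FPKM, so that each dropped to 0 or 1 read in at least 1 AGM library. Ctrb1, the zymogen chymotrypsinogen B, had 0, 385599, 0, 0 and 0 FPKM in AGM and 864144, 0, 646849, 3480580, 0, 0, 0.00995 and 2792 FPKM in TIM-a to TIM-h. It was thus the top gene of TIM-a, TIM-c and TIM-d and at 0 or 1 read in 4 of 5 AGM and in 4 of 8 TIM libraries.

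Among genes high in TIM only, Cpa1, the zymogen of carboxypeptidase A, had 24495, 24222, 7441, 105724, 0, 0, 0 and 0 FPKM. It was high in TIM-a to TIM-d and at 0 in the other 4. The amylase genes Amy2a5 and Amy2a1 reached 3319 and 3007 FPKM in TIM-d, with at most 1 read in the other 7 libraries. Gp2, a membrane glycoprotein of zymogen granules, reached 1444 FPKM in TIM-d, 564 in TIM-b and 320 in AGM-d. TIM-d was also the only TIM library with 0 of the 10 pancreas genes at 0 or 1 read. It held 113 reads of Cpb1, 116 of Klk1, 352 of Rnase1, 306 of Pnliprp1 and 73 of Cckar, the genes that were high in AGM.

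The other zymogens were low in the same libraries. Of the 40 genes of the pancreas list, 38 were in the table, 8 were among the 108, and of the other 30 only 2 exceeded 25 FPKM in any AGM or TIM library. These were Cela3b, a pancreatic elastase (at most 280 FPKM, in AGM), and Erp27, a chaperone of the endoplasmic reticulum (at most 691 FPKM, in TIM). The trypsinogen genes Prss2, Try4 and Try5 stayed at or below 13.4, 14.9 and 21.5 FPKM, and the lipase gene Pnlip at or below 10.2 FPKM. In TIM-d, Ctrb1 was at 3480580 FPKM. A test on the 17 listed genes that were no members and passed the filter called 2 higher and 0 lower in AGM than in AG (limma, FDR below 0.05, with 27.3% of all 11706 genes higher and 30.5% lower), where limma-voom called 1 higher, and 0 in TIM against TI (4.89% of all genes higher and 6.56% lower), where 2 had an unadjusted p below 0.05 and limma-voom also called 0. How far pancreas cells in a tissue piece contributed to these values was not tested, and in bulk RNA fewer cells of a type and less RNA per cell cannot be told apart.

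**Figure D3:**
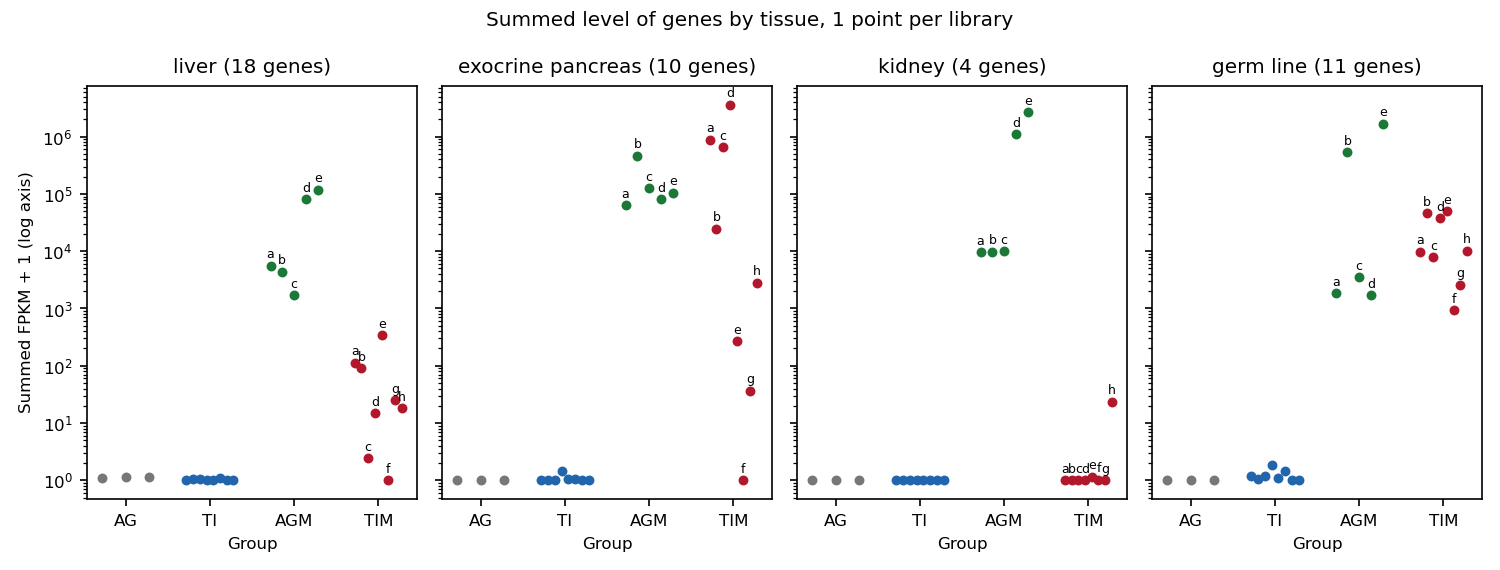
Summed FPKM (log axis) of the liver, exocrine pancreas, kidney and germ line genes among the 108 in each AGM (n = 5) and TIM (n = 8) library, 1 point a library. The liver sum runs from 1711 in AGM-c to 117219 in AGM-e and stays at or below 341 in TIM, whereas the pancreas sum is highest in TIM-d (3594080) and falls to 0.00603 in TIM-f.

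The liver genes, in contrast, moved together. Their summed level was 5539, 4391, 1711, 80856 and 117219 FPKM in AGM-a to AGM-e, and 2, 2, 0, 14 and 18 of the 18 genes exceeded 1000 FPKM there. AGM-d and AGM-e were the 2 highest AGM libraries for all 18 genes, AGM-e was above AGM-d for all 18, and 12 followed the whole order of AGM-e and AGM-d above AGM-a above AGM-b above AGM-c. Over the 63 genes high in AGM only, which include these 18, the counts were 31, 42 and 14. All 18 exceeded 1000 FPKM in AGM-e, so that their order follows in part from the rule. Ahsg, the plasma protein fetuin-A, had 318, 86.6, 52, 8301 and 11877 FPKM. Its neighbour Fetub, the related fetuin-B, had 226, 369, 109, 2321 and 3132 FPKM, and Apoc3, an apolipoprotein of triglyceride-rich particles, had 287, 37, 8.77, 3610 and 8577 FPKM. Serpina1a, a mouse alpha-1-antitrypsin, had 91.5, 15.9, 1.48, 2233 and 3215 FPKM, Serpina1c had 92.7, 14.8, 2.36, 2245 and 3420 FPKM, and Serpina3k had 99.9, 13.1, 6.3, 2619 and 3350 FPKM. In these genes AGM-d and AGM-e stood far above the other 3 libraries, without overlap.

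Enzymes and hormone-regulated liver genes followed the same libraries. Ftcd, an enzyme of histidine breakdown, had 1336, 418, 61.9, 26339 and 40258 FPKM, Hpd, an enzyme of tyrosine breakdown, had 73, 9.6, 0.656, 1561 and 2159 FPKM, and Mat1a, which makes S-adenosylmethionine in liver, had 36.7, 7.11, 1.28, 1172 and 1373 FPKM. The major urinary protein genes Mup2, Mup12, Mup13, Mup18 and Mup19 reached 1055 to 8345 FPKM in AGM-e. Their transcripts share 75.0% to 87.9% of 100-base windows with other genes, so that reads may be split among copies and single Mup values are uncertain. Orm1, an acute-phase protein, and Aox3, an aldehyde oxidase, were less uneven, with 962, 1445, 704, 5666 and 6840 FPKM and 1384, 1764, 617, 5852 and 5982 FPKM.

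The same order was present in liver genes that the rule did not choose. Of 20 genes on the liver list, 4 were among the 108 (Ahsg, Apoc3, Serpina1a and Serpina3k). In all 16 others AGM-d and AGM-e were the 2 highest AGM libraries, and 15 followed the whole order. Their levels were lower. The albumin gene Alb reached 677 FPKM and Apoa2 1207 FPKM at most in an AGM library, so that Alb missed the upper threshold, and Apoa2 was above 1 FPKM in AG (mean 3.59 FPKM, SD 1.63, n = 3). Against AG, 0 of the 15 tested genes were called in AGM (limma), 1 had an unadjusted p below 0.05, limma-voom also called 0, and the median difference was 2.22 on the log2(FPKM + 1) scale against 0.00 over all genes. With all 24 libraries in the fit 7 were higher, with a pseudocount of 0.1 or a rescaled library size 2, and without AGM-c 3. Against AGM, all 15 were lower in TIM (31.0% of all genes were), with a median difference of -3.03 on the log2 scale, but limma-voom called only 2 of them lower.

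Within the liver list, 7 genes had at most 2 reads in every AG library. Of these, Ahsg, Apoc3, Serpina1a and Serpina3k were among the 108, which the rule chose for low AG and high AGM values. The other 3 were not chosen, and had 553 FPKM (Fgb), 172 FPKM (Cps1) and 0.746 FPKM (Mup20) in AGM-e. The 13 genes with 6 to 5333 reads in AG libraries had a median of 94.2 FPKM in AGM-e and 53.1 in AGM-d. The genes Fga, Fgb and Fgg encode the chains of one protein, fibrinogen, and are used together by hepatocytes. Fgb, with 1 read in each AG library, had a mean of 213 ± 281 FPKM in AGM (SD, n = 5), whereas Fga had 21.4 and Fgg 12.9. The part of the batch correction in these values was not tested.

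**Figure D4:**
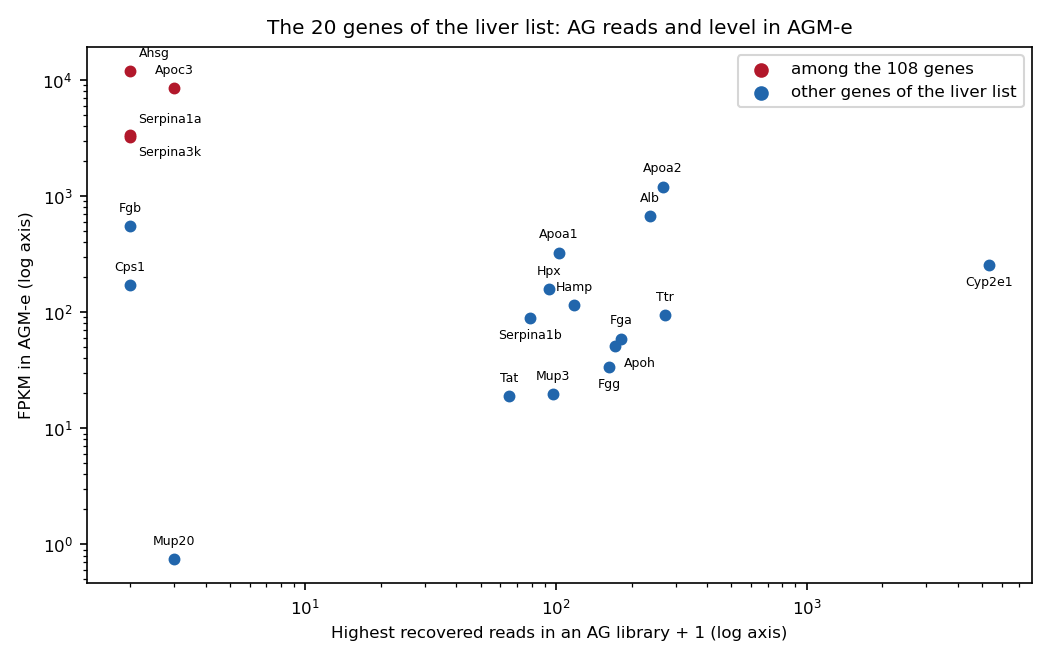
Level in AGM-e in FPKM (log axis) against the highest number of recovered reads in an AG library plus 1 (log axis) for the 20 genes of the liver list. Each point is 1 gene, and those among the 108, chosen by the rule for low AG and high AGM values, sit at 1 or 2 AG reads and at or above 3215 FPKM in AGM-e, whereas Fga and Fgg lie below Fgb.

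In TIM the liver genes were low but not absent. Their sum was 112, 88.8, 1.41, 13.9, 341, 0.0125, 24.0 and 17.2 FPKM in TIM-a to TIM-h, and TIM-e was the highest TIM library for 16 of the 18. Orm1 had 229 FPKM in TIM-e, 74 in TIM-a and 48.7 in TIM-b, and Ahsg 37.7 FPKM in TIM-e. Of the 18 genes, 17 had 1 or 2 reads in every AG library.

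Kidney genes followed only in part. Slc13a2, a citrate and dicarboxylate transporter of the proximal tubule, had 0, 650, 741, 1983 and 1396 FPKM in AGM, and Keg1, named as a kidney-expressed gene, had 75.2, 0, 27.8, 959 and 1573 FPKM. Nat8, an acetyltransferase of cysteine conjugates, had 9596, 9205, 9193, 9593 and 4700 FPKM and was lowest in AGM-e. The kidney list of 20 genes, which includes Umod, Lrp2 and the transporters Slc34a1 and Slc12a1, held 0 of the 108, and its sum stayed at or below 8.04 FPKM in AGM. The levels of Slc17a1 in AGM-d and AGM-e were thus not matched by the other kidney genes among the 108 or by any gene of this list.

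Germ line and developmental genes were scattered. Cfap58, a gene of cilia and sperm flagella, had 8964, 34688, 1340, 31700, 33590, 0, 0 and 0 FPKM in TIM and 0 in every AGM library. Tdrd1, a tudor protein of the piRNA pathway, had 0, 159, 6184, 3526, 8375, 0, 0 and 0 FPKM, and Dnajb8, a testis chaperone, had 0, 0, 897, 0 and 1318 FPKM in AGM and 0.00669, 8347, 0, 0, 4999, 0, 0 and 9835 in TIM. TIM-e was high in all 3 of these genes, whereas TIM-h was high in Dnajb8 only. The testis and sperm list of 20 genes held 0 of the 108, and its sum was at most 18.9 FPKM in AGM and 1.63 in TIM. The motile cilia list of 15 genes also held 0 of the 108, but its sum was 25.9 to 911 FPKM in TIM. This sum was 5.09 to 10.3 FPKM in AGM, at most 1.68 in TI and at most 0.559 in AG. Of its 4 tested genes, limma and limma-voom each called 2 higher and 0 lower in TIM than in TI (limma: 4.89% of all genes higher and 6.56% lower).

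Among genes placed in no tissue, several exceeded 1000 FPKM in 3 or more TIM libraries each. Mmp10, a stromelysin that degrades extracellular matrix, had 76298, 0, 72478, 0, 0, 0, 0 and 276294 FPKM and took 66.6% of the recovered reads of TIM-h. Clca3a2 had 28674, 0.00269, 34278, 0, 27539, 77264, 6003 and 0 FPKM, and Npw, the precursor of neuropeptide W, had 24414, 0, 26771, 0, 100518, 2230, 13064 and 0 FPKM. Hspb3, a small heat shock protein of muscle, had 12125, 6411, 0, 3869, 24393, 0, 6611 and 0 FPKM, and Trim71, an RNA-binding ubiquitin ligase of early embryos and stem cells and a target of let-7 miRNAs, had 0, 0.00115, 22530, 2033, 0, 35643, 0 and 0 FPKM. In each of them some TIM libraries were at 0 and others above 1000 FPKM. Trh, the precursor of thyrotropin-releasing hormone and the only gene of the neuropeptide list among the 108, had 860, 506, 0, 0, 1595, 0, 1170 and 0 FPKM.

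Gm3020 and Gm3278 stood apart because nearly every TIM library had them. Gm3020 had 4220, 1707, 29127, 7265, 5335, 23065, 8456 and 14329 FPKM in TIM-a to TIM-h and 0 in all 5 AGM libraries, and Gm3278 had 2922, 0, 1804, 1762, 1789, 2525, 831 and 1544 FPKM, with at most 1 read in AGM. Both are predicted genes whose transcripts share 93.0% (Gm3020) and 71.6% (Gm3278) of 100-base windows with other genes, and Gm3020 shares windows with 73 genes, so that the assignment of their reads is uncertain. Such sharing was not the rule. Of the 106 genes matched to GENCODE M39 by their identifier, 31 shared any window with another gene and 13 more than 50%, among them Gm9044 (100%), Ccl21b (100%), Gm9732 (100%) and Amy2a1 (94.6%).

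The rule used the values of the 13 AGM and TIM libraries but not which of the 2 groups a library belonged to. Permuting the group labels of a single gene therefore left the selection unchanged, but the permuted values were those that the rule had used. Counts over the 108 genes follow from the group through which each gene was selected. Single-gene p-values and these counts are given as a description only. Over all 11706 genes with at least 1 FPKM in any library, TIM was lower for 31.0% and higher for 27.5% (limma, FDR below 0.05). Of the 108 genes, 46 (42.6%) were lower and 11 (10.2%) higher in TIM. All 46 had exceeded 1000 FPKM in AGM (45 in AGM only, and Hbq1a), and all 11 in TIM only. The values of the 2 groups did not overlap for 24 genes lower in TIM (20.0% of all genes) and for 1 gene higher, Gm3020 (13.7% of all genes). The counts depended on the test, since the exact two-sided permutation test over 1287 assignments called 44 lower and 3 higher at an FDR below 0.05 (31.0% and 26.2% of all genes), and limma-voom on the recovered reads called 24 lower and 1 higher (23.1% and 32.6% of all genes).

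The genes with the largest differences below 0 were among those above 1000 FPKM in every AGM library, for which the selection fixed a high AGM level. The difference of TIM from AGM was -15.80 ± 0.41 (SE) on the log2(FPKM + 1) scale for Notum, -15.19 ± 0.17 for Cpb1, -15.13 ± 0.15 for Nr0b2, -14.46 ± 0.17 for Cckar and -12.98 ± 0.17 for Nat8, with limma FDR of 2.88e-12, 6.62e-16, 4.90e-16, 8.21e-16 and 2.45e-15. For all 5 the exact permutation p was 0.000777, the smallest these 1287 assignments can give. All 5 entered the selection through AGM, so that these FDR and p-values reuse the values of the rule and only describe them. Gm3020, which entered the selection through TIM, was higher there by 13.02 ± 0.58 (limma FDR 7.67e-10, permutation FDR 0.00302), in 8 of 8 libraries. Gm3278 was higher by 9.44 ± 1.61 (limma FDR 0.000287, permutation FDR 0.0119), with an FDR of 0.514 in limma-voom. Clca3a2, Npw and Cfap58 were higher by 9.18 ± 3.21, 8.84 ± 3.13 and 8.57 ± 3.04 (limma FDR 0.0260, 0.0274 and 0.0277), but the permutation FDR were 0.0920, 0.105 and 0.113. Ctrb1, despite its 3480580 FPKM in TIM-d, was not called (5.32 ± 4.97, limma FDR 0.370). Mmp10 (6.31 ± 3.65, limma FDR 0.152) and Trim71 (5.07 ± 2.97, limma FDR 0.156) did not pass either. Like Gm3020, the genes named after it entered the selection through TIM, and Ctrb1 through AGM as well. Their FDR thus also reuse the values of the rule and only describe them.

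**Figure D5:**
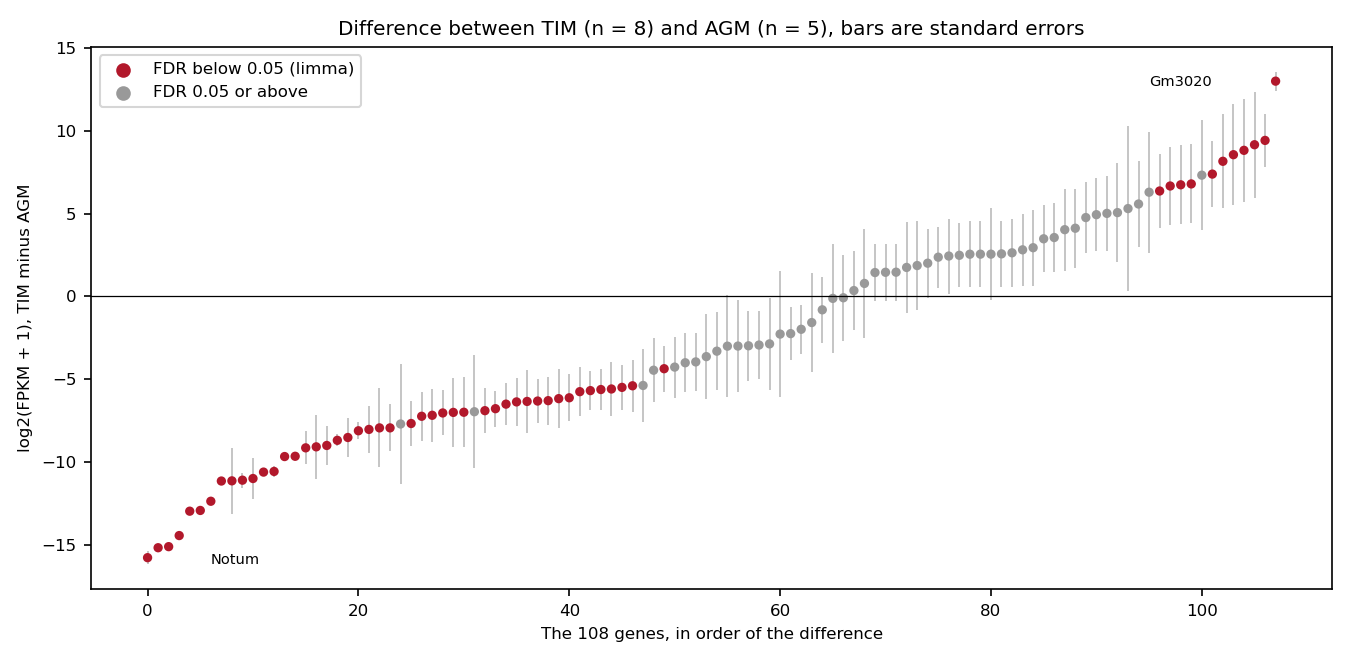
Difference between TIM (n = 8) and AGM (n = 5) in log2(FPKM + 1) for the 108 genes in order of the difference, with standard errors as bars. The points with an FDR below 0.05 in limma (red) are 46 lower and 11 higher, and the bars are short for genes high in every AGM library and for Gm3020, but long for genes high in some libraries.

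By position and structure the 108 genes were spread out. They lay on 19 chromosomes, with 6 adjacent pairs, which were Serpina1a and Serpina1c, Krt88 and Krt81, Ahsg and Fetub, Tdrd1 and Vwa2, Mup18 and Mup19, and Gpr139 and Gp2. Neighbours did not need to share a library. Krt81 was high in AGM-c only, whereas Krt88 was high in TIM-a (2539 FPKM) and TIM-b (2392 FPKM). Their median gene length was 1994 bases, against 3523 bases over all genes, which raises the FPKM of a given read number, and 14.8% carried a predicted or clone-derived symbol (Gm or Rik), against 7.81% of all genes. None of the 1524 olfactory, vomeronasal and taste receptor genes and none of the 104 histone genes of the table was among them. Over all genes of the table the share among the 108 was 0.495%. At this share a set as small as the histones or a marker list would often hold none. Of the 26 marker lists, 6 held 16 of the 108 genes in all (exocrine pancreas 8, liver 4, and 1 each for Camp, Trh, Notum and the bone protein gene Ibsp), and 20 held none, among them skeletal muscle, lung, intestine and stomach, and the lymphocyte lists. A list covers only a few genes of its tissue, and Hspb3, described above as a gene of muscle, was on none of them. Ibsp, the bone sialoprotein, had 1195, 3383, 3287, 905 and 709 FPKM in AGM, while the other 11 genes of the bone and cartilage list summed to at most 4.32 FPKM there.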

How the data were processed

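Tissue pieces had been shock-frozen, and poly(A)-enriched, strand-specific libraries were sequenced. The submitters' processing notes name cutadapt 2.8, HISAT2 2.1.0, SAMtools 1.10, featureCounts 2.0.0, edgeR 3.40 and the build mm39. Per the study's methods, counts were corrected for a batch effect with ComBat-seq and normalized with TMM. The annotation is not given in the sources used here. The deposited values were FPKM, with gene length in another deposited column. The authors' columns of fold changes, p-values and FDR for AGM, TI and TIM against AG were not used.

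Columns were assigned to groups by name, and their run, zygosity and location were not known. FPKM times length came out as whole reads in 100.0% of entries (tolerance 0.01 reads). The recovered reads outside the 126 genes above 1000 FPKM, which follow the correction too, were 12334076 to 23683176 a library. Counts of reads cover counting error only. No 2 columns were identical. The genes described and the marker lists were chosen with earlier results of these data known, and tissue groups were assigned after the values were seen. Comparisons used limma 3.58.1 in R 4.3.3 (lmFit, eBayes with trend) on log2(FPKM + 1) of the 2 groups compared, for the 11706 genes that reached 1 FPKM in any library, with Benjamini-Hochberg adjustment. The code was tested on simulated data. AGM vs AG and TIM vs TI were fitted for all these genes, but tests are given only for listed genes that the rule had not chosen and as counts over all genes. Alternatives were an exact permutation test, limma-voom on recovered reads, a pseudocount of 0.1, other filters and thresholds, all 24 libraries in the fit, a library size without the 126 genes above 1000 FPKM, and leaving out each library. Named were the 12 genes with the highest mean in AGM and in TIM, genes on marker lists, genes next to a threshold, the 5 largest falls and rises between AGM and TIM, families and neighbours, and genes behind counts of 5 or fewer. Others were named after their values were seen, and some items are not reported here. Transcripts and positions came from GENCODE M39 on GRCm39.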

Additional observations from a re-analysis of the deposited data

Results flagged for a closer look

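Values far from the other libraries of their group were sought in 36 groups of libraries (the genes with the highest means, in AGM and in TIM, on the log2(FPKM + 1) scale, and the share of reads in the 108 genes), with a gap to the next library above 0.71 of the range for 5 libraries and above 0.526 for 8. They were found in 12. In AGM these were Ninj2 with 12269500 FPKM, Gm9044 with 610404 FPKM and Krt81 with 299080 FPKM in AGM-c, Ankrd7 with 1071420 FPKM in AGM-e, Cldn6 with 419795 FPKM in AGM-d, Ctrb1 with 385599 FPKM in AGM-b and Gm8126 with 347054 FPKM in AGM-a. In TIM they were Slc17a1 with 22.5 FPKM in TIM-h, Tex29 with 42.7 FPKM in TIM-g, Ankrd7 with 261 FPKM and Gm8126 with 90.6 FPKM in TIM-f, and Cldn6 with 59.1 FPKM in TIM-d. All 12 were high values, and the 7 in AGM came from all libraries of that group. The genes had been selected for high values, so that the number of such libraries is a description and cannot be set against a chance rate.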

How the results depend on the processing

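No paired analysis was possible because the columns carry none of the labels' replicate numbers. The number of genes chosen was 156 above 500 FPKM, 74 above 2000 FPKM, 106 below 0.5 FPKM and 111 below 2 FPKM in AG and TI, and 98 to 110 when 1 library was left out. Scaled to the reads outside the extreme genes it was 203, of which 94 were shared with the 108. Genes high in both AGM and TIM were 17 above 100 FPKM and 26 above 10 FPKM in place of 7. In TIM vs AGM 6852 genes were called (5946 to 7327 when 1 library was left out), in AGM vs AG 6771 (5422 to 7077, and 3088 with all 24 libraries in the fit), and in TIM vs TI 1341 (759 to 1659, and 2475 with all 24 libraries). Of the 108 genes, 46 to 52 were lower and 6 to 15 higher in TIM than in AGM when 1 library was left out, 24 and 1 in limma-voom, and 3 were higher in the exact permutation test. The 6 came without AGM-e. Npw and Cfap58 did not pass without AGM-d (FDR 0.0509 and 0.0513) or AGM-e (0.0521 and 0.0525). The liver list genes that were not chosen, 0 of which were higher in AGM than in AG, gave 7 with all 24 libraries, 2 with a pseudocount of 0.1, 2 with the rescaled library size and 0 to 3 when 1 library was left out. The 5 largest differences of TIM from AGM in each direction kept their sign under all of these alternatives. Of the 108 genes, 15 changed sign under at least 1 alternative, 3 of them without a library left out (Gm9044 from -1.58 to 0.19 and Klhl31 from 0.36 to -0.52 in limma-voom, and Irx1 from -0.12 to 0.00 after rescaling). None of the 15 was called in either fit, and Ninj2 turned from -2.27 to 2.43 without AGM-c. Rescaling moved the median of all genes by 0.26 in TIM vs AGM, -0.35 in AGM vs AG and -0.10 in TIM vs TI (log2). Added after the data were seen, leaving out TI-g and TI-h kept 108 genes, and AGM vs AG without AGM-d and AGM-e gave 6355 calls. The cause of these changes was not tested. Low AG and TI values rest on single reads, which limits any statement on differences there.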

Other observations

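Several genes of the 108 were high in a subset of TIM libraries and low in AGM without being markers of a listed tissue. Ppp1r1c, an inhibitor subunit of protein phosphatase 1, had 1215, 0, 3097, 0, 2910, 322, 5168 and 0 FPKM in TIM-a to TIM-h, and the orphan receptor gene Gpr139 had 1191, 0, 1837, 758, 0, 321, 4306 and 0 FPKM. For both, TIM-g was the highest library and TIM-h was at 0. Irx1, a homeobox factor, was high in both groups, with 0.00471, 0, 0, 3355 and 2928 FPKM in AGM and 2906, 2743, 0, 0, 10238, 0, 0 and 0 FPKM in TIM, and S100a3, a calcium-binding protein of hair, likewise, with 986, 0.00408, 1907, 0.00433 and 1003 FPKM in AGM and 853, 3059, 0, 3759, 2391, 0, 536 and 945 FPKM in TIM.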
